A study of Mus musculus with 9 samples.

Results

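Microglia meet T cells through a small set of surface molecules, and 10 genes of this set were followed. They are the receptors Cd28, Ctla4, Havcr2 and Il2ra and the ligands and partners found on antigen-presenting cells, Cd80, Cd86, Icosl, Cd274, Pdcd1lg2 and Cd40. All probe sets annotated to exactly 1 of these symbols were taken, 18 in all, and the brightest over the arrays stood for its gene. The 10 genes were among 17097 measured.

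A T cell that recognises antigen becomes fully active only when a further signal reaches it through CD28, whose ligands are the B7 proteins CD80 and CD86 of antigen-presenting cells. CTLA-4 competes for the same ligands and restrains the T cell, as do PD-L1 (Cd274) and PD-L2 (Pdcd1lg2), the ligands of PD-1. TIM-3 (Havcr2) is an inhibitory receptor of T cells that myeloid cells, microglia among them, also carry.

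The 9 samples, 3 per group, were primary murine microglia prepared from neonatal cortices of C57BL/6J mice at P0-P2. The groups were kept for 6 h in glioma-conditioned medium (GCM) of LN18 cells, kept for 6 h in GCM of U87-MG cells, or left untreated as the control. LN18 and U87-MG are established human glioblastoma lines, so murine cells met medium from human cells, and the labels describe no conditioned medium of other cells as a control. Cells of all groups had been grown in DMEM with 10% serum, and the 3 replicates came from separate cortical cultures. RNA of each sample was read on an array of its own, a single-colour Affymetrix MG-430 PM strip.

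Of 14 microglia markers measured, 12 lay above the median log2 signal of all genes, 4.34, and the brightest averaged 11.64. The homeostatic markers P2ry12 (3.65), named after its value was seen, and Tmem119 (4.28) lay below it. T cell, B cell, natural killer cell and neuron markers averaged between 2.16 and 5.18, and among 14 T cell markers Cd3e (5.18) and Lat (4.45) lay above the median. Above it were also Fscn1 (6.44) of the dendritic cell list, Aldoc (4.99) of the astrocyte list, Sox10 (5.15) and Cnp (5.72) of the oligodendrocyte list, and Flt1 (6.83) of the fibroblast and endothelium list. The values are log2 signals, on which a difference of 1 is a doubling, and since probe sets differ in brightness they rank groups for 1 gene and not genes against each other. Arrays have no depth, and their number, 3 per group, limits the precision.

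No gene of the set passed the test in either medium. Groups were compared in limma with the replicate number as a block, with Benjamini-Hochberg adjustment over all 17097 genes, and a gene was called at an adjusted p under 0.05. In GCM LN18 0 of the 10 genes were called, where 0.877% of all genes were, and in GCM U87-MG 0 of 10, where 0.0468% of all genes were. At an unadjusted p under 0.05 Cd28 and Havcr2 passed in both media, 2 of 10 genes, beside 12.2% of all genes with GCM LN18 and 9.12% with GCM U87-MG. Without the block the same 2 genes were called in GCM LN18, where 5.23% of all genes were, and 0 in GCM U87-MG, where 1.51% were. In the deposited values all replicate numbers have equal means, which leaves 4 residual degrees of freedom. The fit without the block counts 6, so the calls of that fit are weaker evidence. The median log2 fold change of the 10 genes was -0.01 with GCM LN18 and -0.02 with GCM U87-MG, and that of all genes was -0.00 in either medium.

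**Figure D1:**
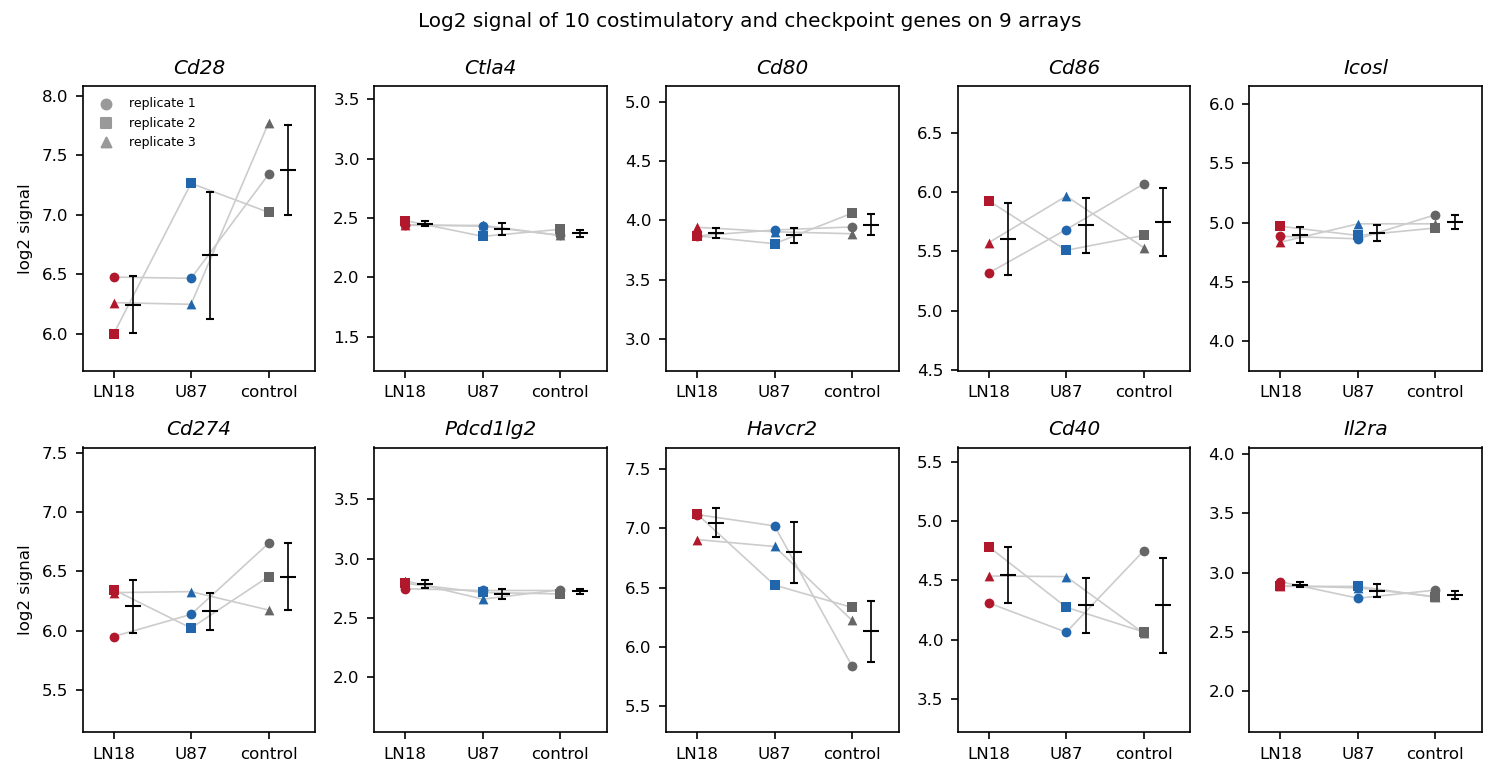
Log2 signal (vertical axis, spanning the same number of units in every panel) of the 10 genes on the 9 arrays, in GCM LN18 (red), GCM U87-MG (blue, marked U87) and control (grey). Symbols mark the replicate number, and grey lines join arrays of 1 number. Black bars are the mean ± SD (n = 3), without the differences between replicate means. Cd28 and Havcr2 are the only panels where a medium mean lies over 0.5 from the control mean.

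Cd28 encodes the receptor that gives T cells their costimulatory signal, and its log2 signal was lower on every GCM LN18 array than on any control array. It read 6.48, 6.00 and 6.26 in GCM LN18 replicates 1, 2 and 3, 6.46, 7.27 and 6.25 in those of GCM U87-MG, and 7.34, 7.02 and 7.77 in those of the control, the order used for all genes. GCM U87-MG overlapped the control, because its replicate 2 lay above control replicate 2, while its other 2 arrays lay within the range of GCM LN18. The means were 6.24 ± 0.24 in GCM LN18, 6.66 ± 0.54 in GCM U87-MG and 7.38 ± 0.38 in the control (SD, n = 3). All replicate numbers have equal means in the deposited values, so the SDs of all genes leave out differences between replicate means.

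In GCM LN18 the log2 fold change of Cd28 was -1.14 (standard error 0.29, 95% interval -1.80 to -0.47), which is 2.20-fold lower, with an adjusted p of 0.136 from limma with the block and 0.0442 without it. Sorted from the lowest log2 fold change of this comparison, Cd28 stood at rank 8 of the 17097 genes. In GCM U87-MG it was -0.72 (95% interval -1.38 to -0.06, adjusted p = 0.509 from limma, 0.220 without the block). Leaving out GCM U87-MG replicate 2 gave -1.17 in that medium (adjusted p = 0.0652 from limma), and in GCM LN18 it left the log2 fold change at -1.14 and brought its adjusted p to 0.0162. Without GCM U87-MG replicate 3 the value in that medium was -0.41, and without control replicate 3 it was -0.42.

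The gene's other probe set read 5.64, 5.53 and 5.73 on GCM LN18 arrays, 6.01, 6.59 and 5.81 on GCM U87-MG arrays, and 7.08, 6.62 and 7.19 on control arrays. Here the arrays of both media lay below all control arrays, although GCM U87-MG replicate 2 was 0.03 below control replicate 2. In the fit of all probe sets its log2 fold change was -1.33 in GCM LN18 (standard error 0.21, adjusted p = 0.0461 from limma) and -0.83 in GCM U87-MG (adjusted p = 0.341 from limma). In GCM LN18 this was the 1 probe set of the 18 that passed the test.

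Cd28 is best known from T cells, and in RNA of whole cultures fewer cells of a type cannot be told apart from less RNA per cell. The mean log2 signal of the 14 T cell markers ran from 3.20 to 3.21 on GCM LN18 arrays, from 3.19 to 3.21 on GCM U87-MG arrays and from 3.22 to 3.24 on control arrays, with 0 of 14 called in either medium by limma and 0 at an unadjusted p under 0.05. Their part in the Cd28 result was not tested.

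Havcr2 encodes TIM-3, and all 6 arrays of the 2 media lay above all 3 control arrays. Its log2 signal was 7.12, 7.12 and 6.91 on GCM LN18 arrays, 7.02, 6.52 and 6.85 on GCM U87-MG arrays, and 5.84, 6.33 and 6.22 on control arrays. The closest pair was GCM U87-MG replicate 2 and control replicate 2, which differed by 0.19. The means were 7.05 ± 0.12 in GCM LN18, 6.80 ± 0.25 in GCM U87-MG and 6.13 ± 0.26 in the control (SD, n = 3).

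The log2 fold change of Havcr2 was 0.91 in GCM LN18 (standard error 0.16, 95% interval 0.54 to 1.29), or 1.88-fold, with an adjusted p of 0.0511 from limma with the block and 0.0102 without it. Sorted from the highest, Havcr2 stood at rank 35 of the 17097 genes. In GCM U87-MG it was 0.66 (95% interval 0.29 to 1.04), or 1.58-fold, with an adjusted p of 0.261 from limma with the block and 0.0685 without it. Leaving out GCM U87-MG replicate 2 brought the adjusted p to 0.0226 with GCM LN18 and 0.114 with GCM U87-MG, where the log2 fold change then was 0.87. Without control replicate 1 the log2 fold change was 0.70 with GCM LN18 and 0.44 with GCM U87-MG.

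Microglia carry TIM-3, and of the 14 microglia markers 3 were called higher in GCM LN18, beside 0.877% of all genes, and 2 in GCM U87-MG, beside 0.0468%, with none called lower. Without the block these counts were 7 of 14, beside 5.23% of all genes, and 3 of 14, beside 1.51%. The median log2 fold change of the 14 was 0.29 with GCM LN18 and 0.23 with GCM U87-MG, but Cd68 (-0.02 and -0.05) and Ptprc (-0.04 and -0.00) lay below 0 and Trem2 (0.01 and 0.05) lay near it, 3 genes named after their values were seen. The mean log2 signal of the 14 microglia markers ran from 9.16 to 9.19 in GCM LN18, from 9.001 to 9.17 in GCM U87-MG and from 8.64 to 8.78 in the control. Cx3cr1, the fractalkine receptor of microglia, and Olfml3, a secreted glycoprotein, rose in both media, and Tmem119, a membrane protein of homeostatic microglia, rose in GCM LN18. Cx3cr1 had log2 fold changes of 0.97 in GCM LN18 (adjusted p = 0.00827 from limma) and 0.78 in GCM U87-MG (adjusted p = 0.0499), Olfml3 had 1.70 (adjusted p = 0.00441) and 1.48 (adjusted p = 0.0168), and Tmem119 had 0.91 in GCM LN18 (adjusted p = 0.0390). With 1 array left out, the call of Olfml3 in GCM LN18 held each time, that of Cx3cr1 was lost without GCM LN18 replicate 2 (adjusted p = 0.0859), and that of Tmem119 held only without GCM U87-MG replicate 1 or control replicate 1 and otherwise reached up to 0.228. In GCM U87-MG the call of Cx3cr1 held only without GCM LN18 replicate 1 or control replicate 1 (up to 0.360 otherwise), and that of Olfml3 was lost without control replicate 3 (0.0503) or any 1 of the 3 GCM U87-MG arrays (up to 0.258). The part of these markers in the Havcr2 result was not tested.

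The bases before the start site of Havcr2 are shown. By brightest probe set, it was the 1 gene of the set that lay apart from the control on every array of both media. Taken singly, GCM LN18 arrays lay apart for 23.9% of all genes and GCM U87-MG arrays for 19.1%. The share of all genes apart with both was not counted, so how unusual Havcr2 is here was not tested. No such bases were given for Cd28, whose other probe set also lay apart. RefSeq (GRCm38.p6) places the bases of Havcr2 at chr11:46454681-46454930 on the + strand. Capitals mark matches to the 2 motifs found, AP-1 (TGANTCA) at -200 to -194 and PU.1 (GAGGAAG) at -8 to -2 from the start. PU.1 is a transcription factor on which microglia depend, and AP-1 is a family of factors induced by many stimuli.
Havcr2: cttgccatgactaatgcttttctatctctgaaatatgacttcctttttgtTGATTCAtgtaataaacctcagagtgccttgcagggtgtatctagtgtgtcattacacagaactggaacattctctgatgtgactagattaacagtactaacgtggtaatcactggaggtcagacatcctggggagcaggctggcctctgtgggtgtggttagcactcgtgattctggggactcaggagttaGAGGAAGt

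The 6 motifs were searched on both strands of the window from 250 bases before to 50 after the start, which was given for 7 of the 10 genes. The share of 32851 such windows with a match was 13.6% for PU.1, 7.81% for AP-1, 8.30% for the STAT motif GAS (TTCNNNGAA), 1.68% for NF-kB (GGGANTTCC), 8.56% for IRF (GAAANNGAA) and 2.19% for SMAD (GTCTAGA). Cd80 had an AP-1 match at -42 to -36, and Cd274 and Ctla4 had an IRF match on the other strand, at -76 to -68 and at -166 to -158. The windows of Cd80 (chr16:38458683-38458982) and Cd274 (chr19:29367188-29367487) lie inside the gene intervals given below. Their start is therefore not the first base of those intervals. Icosl, Pdcd1lg2 and Il2ra had a match to none of the 6. No 2 of these matches overlapped, and a match describes the letters only.

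The other receptors of the set were dim on these arrays. Ctla4, the inhibitory counterpart of Cd28, read 2.44, 2.48 and 2.44 on GCM LN18 arrays, 2.43, 2.35 and 2.44 on GCM U87-MG arrays, and 2.35, 2.40 and 2.35 on control arrays. Il2ra, the subunit that gives the IL-2 receptor its high affinity, read 2.92, 2.88 and 2.89 on GCM LN18 arrays, 2.78, 2.88 and 2.87 on GCM U87-MG arrays, and 2.85, 2.79 and 2.80 on control arrays. For both genes the GCM LN18 arrays lay above the control arrays without overlap and those of GCM U87-MG overlapped the control, but the distance was small. The log2 fold change in GCM LN18 was 0.08 for either gene (adjusted p = 0.629 for Ctla4 and 0.626 for Il2ra from limma), and the dimmer probe set of Il2ra gave -0.04.

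**Figure D2:**
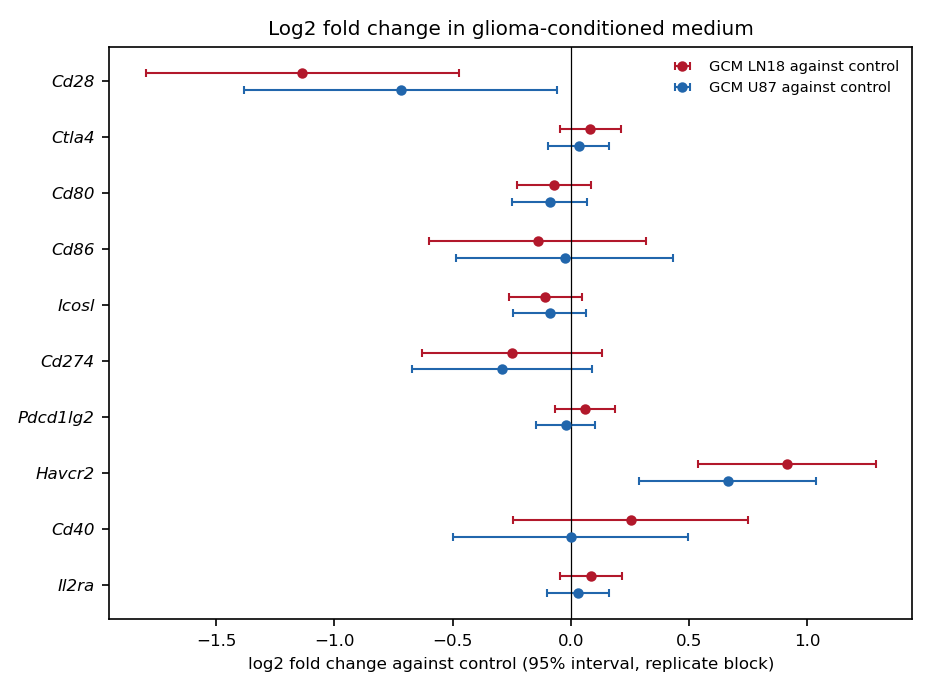
Log2 fold change of each gene against control, with the 95% interval of the limma fit with the replicate block, in GCM LN18 (red, upper point) and GCM U87-MG (blue, lower point). The intervals of Cd28 and Havcr2 leave out 0 in both media and those of the other 8 genes include it.

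Cd80 and Cd86, the B7 ligands of Cd28 and Ctla4, did not pass the test in either medium. Cd86 read 5.32, 5.93 and 5.57 on GCM LN18 arrays, 5.68, 5.51 and 5.97 on GCM U87-MG arrays, and 6.07, 5.64 and 5.53 on control arrays, so that all groups overlapped. Its log2 fold change was -0.14 in GCM LN18 (95% interval -0.60 to 0.32, adjusted p = 0.843 from limma) and -0.03 in GCM U87-MG (95% interval -0.48 to 0.43). The gene's other probe set disagreed in sign, at 0.09 with GCM LN18 and 0.00 with GCM U87-MG.

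Cd80 spanned 3.80 to 4.06 over the 9 arrays. Its log2 fold change was -0.07 in GCM LN18 (95% interval -0.23 to 0.09) and -0.09 in GCM U87-MG (95% interval -0.25 to 0.07). Its 3 dimmer probe sets gave between -0.08 and 0.02 in GCM LN18 and between -0.14 and -0.02 in GCM U87-MG. Icosl, the ligand of ICOS, spanned 4.83 to 5.07, with log2 fold changes of -0.11 in GCM LN18 (adjusted p = 0.594 from limma) and -0.09 in GCM U87-MG (adjusted p = 0.744 from limma). The dimmer probe set of Icosl gave -0.04 in either medium.

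Cd274, which encodes PD-L1, read 5.95, 6.35 and 6.32 on GCM LN18 arrays, 6.14, 6.02 and 6.33 on GCM U87-MG arrays, and 6.74, 6.46 and 6.17 on control arrays. Control replicate 3 lay within the range of both media, so the groups overlapped. The log2 fold change was -0.25 in GCM LN18 (95% interval -0.63 to 0.13, adjusted p = 0.622 from limma) and -0.29 in GCM U87-MG (95% interval -0.67 to 0.09, adjusted p = 0.662 from limma). Without control replicate 1 it was -0.04 with GCM LN18 and -0.08 with GCM U87-MG, and without control replicate 3 it was -0.46 with GCM LN18 and -0.50 with GCM U87-MG. Pdcd1lg2, which encodes PD-L2, spanned 2.66 to 2.81 over all arrays and had log2 fold changes of 0.06 in GCM LN18 (95% interval -0.07 to 0.19) and -0.02 in GCM U87-MG (95% interval -0.15 to 0.10).

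Cd40, through which helper T cells activate antigen-presenting cells, did not pass the test in either medium, and its control arrays were uneven. It read 4.31, 4.78 and 4.54 on GCM LN18 arrays, 4.06, 4.27 and 4.53 on GCM U87-MG arrays, and 4.75, 4.07 and 4.05 on control arrays. Control replicate 1 lay above the other 2 control arrays and within the range of GCM LN18. In both media replicate 1 was the lowest of its group. Since replicate means are equal in the deposited values, they cannot show which of these arrays departed. The log2 fold change was 0.25 in GCM LN18 (95% interval -0.24 to 0.75, adjusted p = 0.722 from limma) and -0.00 in GCM U87-MG (95% interval -0.50 to 0.50). Without control replicate 1 it was 0.60 in GCM LN18 (adjusted p = 0.0598 from limma) and 0.34 in GCM U87-MG, and with any other single array left out it lay at 0.07 or above in GCM LN18, lowest without GCM LN18 replicate 2.

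**Figure D3:**
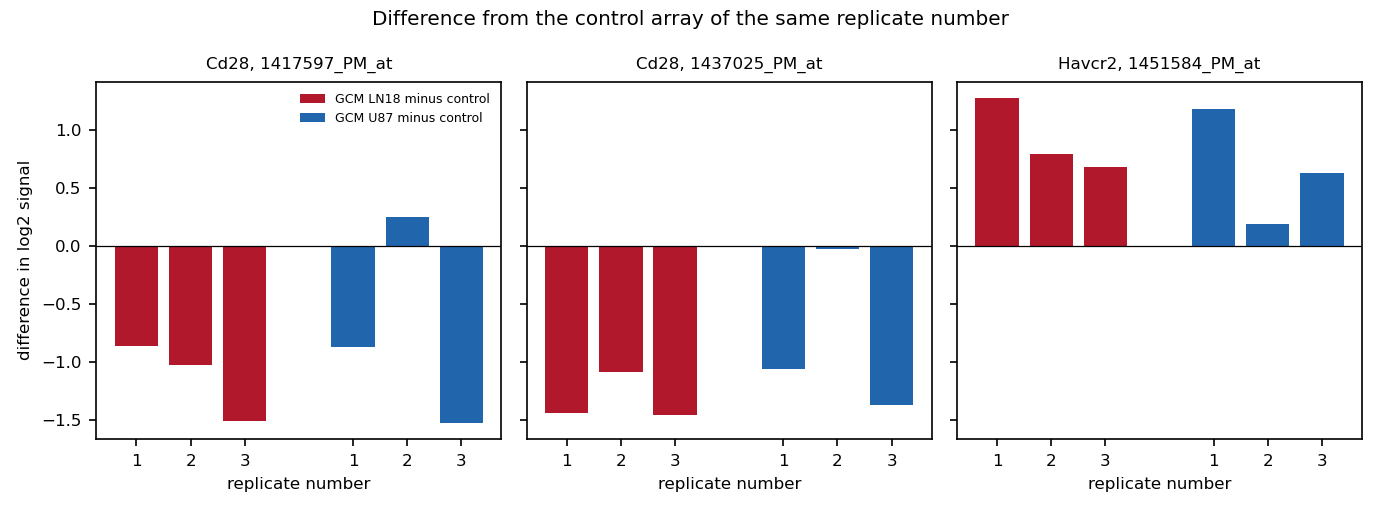
Difference in log2 signal between each medium array and the control array of the same replicate number, for both probe sets of Cd28 and the probe set of Havcr2, in GCM LN18 (red) and GCM U87-MG (blue). In replicate 2 of GCM U87-MG the differences were 0.24 and -0.03 for Cd28 and 0.19 for Havcr2, the smallest in size of that medium for each probe set.

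Arrays of the same replicate number differed from their control array in the following way for Cd28 and Havcr2. In GCM LN18 the differences of Cd28 were -0.87, -1.03 and -1.51 in replicates 1, 2 and 3, and in GCM U87-MG they were -0.88, 0.24 and -1.53. Those of Havcr2 were 1.28, 0.79 and 0.68 with GCM LN18 and 1.18, 0.19 and 0.62 with GCM U87-MG. Both media are set against the same 3 control arrays, so their values share the control's spread.

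Complete separation of the 3 medium arrays from the 3 control arrays was seen in GCM LN18 for 5 of the 10 genes, Cd28, Ctla4, Havcr2, Il2ra and Pdcd1lg2, beside 23.9% of all genes. In GCM U87-MG it was seen for 1 of 10, Havcr2, beside 19.1% of all genes. For Ctla4, Il2ra and Pdcd1lg2 the separation came with log2 fold changes between 0.06 and 0.08.

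Set directly against each other, the media gave 0 called genes of 10, beside 0% of all genes, and at an unadjusted p under 0.05 also 0 of 10, beside 5.06% of all genes. Without the block 0 of 10 were called beside 0.00585% of all genes. The difference of GCM LN18 minus GCM U87-MG was -0.42 for Cd28 (95% interval -1.08 to 0.25) and 0.25 for Havcr2 (95% interval -0.12 to 0.63), both with an adjusted p of 0.926 from limma. The intervals of the other 8 genes also included 0 and were widest for Cd40 (0.25, 95% interval -0.24 to 0.75).

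Position in the genome pairs several of the genes. In GRCm38.p6 Cd28 (chr1:60746388-60773359) and Ctla4 (chr1:60909025-60915832) are neighbours on chromosome 1, as are Cd274 (chr19:29362107-29388095) and Pdcd1lg2 (chr19:29410919-29472927) on chromosome 19, and Cd86 (chr16:36568956-36666158) and Cd80 (chr16:38457430-38495958) lie on chromosome 16. Havcr2 lies at chr11:46454931-46481255.

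Over the 9 arrays the genes whose log2 signal followed Cd28 most closely were Dock11, Paxip1 and Tmem154, each with a Pearson correlation of 0.99. For Havcr2 they were Spire1, Utp3 and Irf2bpl, each with 0.99. Cd28 and Havcr2 had a correlation of -0.86 with each other. Both were taken for their group differences, which ran in opposite directions, so a negative value was built in. All these correlations describe 9 points, in which the 3 arrays of each replicate number have the same mean. Those of the other genes were picked as the highest among all genes measured.

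Of 92 further genes listed for this pathway, 78 were measured. In GCM LN18 1 was called higher and 1 lower, beside 0.877% of all genes, and in GCM U87-MG 0 were called, beside 0.0468%. At an unadjusted p under 0.05 there were 16 of 78 in GCM LN18, beside 12.2% of all genes, and 13 of 78 in GCM U87-MG, beside 9.12%. Without the block 3 were called higher and 7 lower in GCM LN18, and 1 higher and 2 lower in GCM U87-MG, beside 5.23% of all genes with GCM LN18 and 1.51% with GCM U87-MG. Their median log2 fold change was -0.03 in either medium.

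Cd200r1, the inhibitory myeloid receptor of CD200, was the 1 that fell. It read 8.12, 8.29 and 8.46 on GCM LN18 arrays, 8.34, 8.53 and 8.37 on GCM U87-MG arrays, and 9.26, 8.91 and 8.89 on control arrays, with the arrays of both media below all control arrays. Its log2 fold change was -0.73 in GCM LN18 (standard error 0.13, adjusted p = 0.0484 from limma) and -0.61 in GCM U87-MG (adjusted p = 0.198 from limma, 0.0426 without the block). The call in GCM LN18 held when control replicate 1 was left out (adjusted p = 0.0460) and was lost when any other single array was, with an adjusted p of up to 0.272.

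Irf8, a transcription factor of microglia and dendritic cells, was the 1 that rose. It read 8.96, 8.89 and 8.93 on GCM LN18 arrays, 8.91, 8.88 and 8.88 on GCM U87-MG arrays, and 8.55, 8.65 and 8.60 on control arrays, without overlap. The log2 fold change was 0.33 in GCM LN18 (standard error 0.06, adjusted p = 0.0480 from limma) and 0.29 in GCM U87-MG (adjusted p = 0.174 from limma, 0.0167 without the block). In GCM LN18 the call was lost when any single array was left out, with adjusted p-values from 0.0610 to 0.226.

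By role, 0 of 10 other B7 and CD28 family genes, 0 of 16 TNF family genes, 1 of 17 other checkpoint genes (Cd200r1), 0 of 8 IL-2 receptor family genes, 0 of 14 genes of signalling below CD28 and 1 of 13 transcription factors (Irf8) were called in GCM LN18. Without the block the counts in GCM LN18 were 1 higher in the B7 and CD28 family (Cd276), 1 lower in the TNF family (Tnfsf9), 1 higher (Nectin2) and 1 lower (Cd200r1) among other checkpoints, 0 in the IL-2 receptor family, 4 lower in signalling below CD28 (Fyn, Gab2, Bcl10 and Malt1), and 1 higher (Irf8) and 1 lower (Batf) among transcription factors. In GCM U87-MG they were Cd200r1 and Batf lower and Irf8 higher. Apart from Cd200r1 and Irf8, these genes were named after their values were seen. The list medians in GCM LN18 were 0.01 for the B7 and CD28 family, -0.02 for the TNF family, 0.05 for other checkpoints, -0.11 for the IL-2 receptor family, -0.10 for signalling below CD28 and -0.06 for transcription factors. In GCM U87-MG they lay between -0.09 and 0.00.

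**Figure D4:**
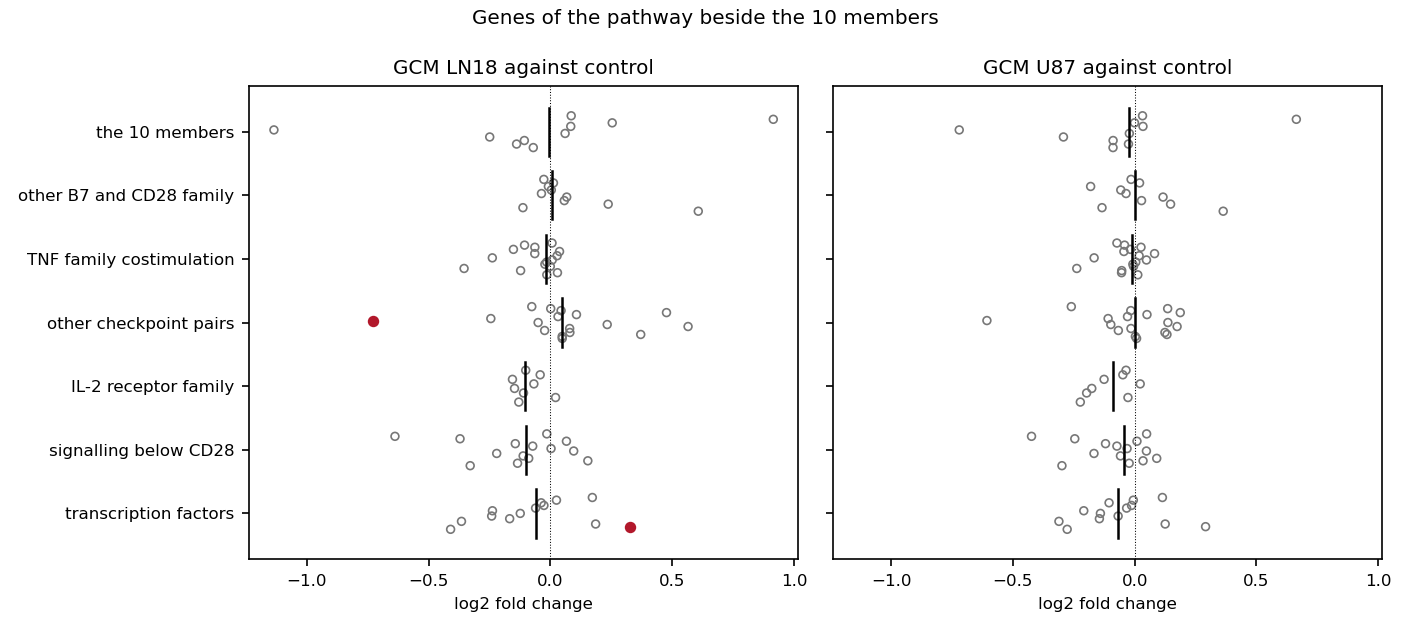
Log2 fold change against control of the 10 genes and of the 6 pathway lists, in GCM LN18 (left) and GCM U87-MG (right). Each circle is 1 gene, spread vertically only for legibility, filled where limma with the block gave an adjusted p under 0.05, and black bars are list medians; filled are Cd200r1 and Irf8, both in GCM LN18.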

How the data were processed

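Expression was measured in 9 microglia samples, 3 per group, on 1 array each. The authors deposited log2 signals for 45141 probe sets, already normalized, with array medians of 3.39 to 3.41. The submitters' processing notes name limma; the study's methods name RMA for public arrays it compared, and whether RMA was also used here is not stated. For 100% of the probe sets the 3 arrays of each replicate number have the same mean within 1e-06, as after subtraction of a replicate mean. The 9 values then hold 4 residual degrees of freedom, and the replicate number was therefore fitted as a block. The fit without it, which counts 6, is given for calls of the 10 genes and of the gene lists that differ. The labels do not say whether a number marks 1 culture in all groups. Equal means force same-number deviations apart (correlations -0.70 to -0.19), so pairing could not be checked from the data. Differences between replicate means are likewise absent from the SDs and from the counts of separated arrays.

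Left out were 104 control probe sets, 551 with more than 1 symbol and 15588 that the annotation used here does not name. Of 45037 probe sets, 28898 had 1 symbol and 28689 matched a current one. All 9 arrays were fitted in limma 3.58.1 (R 4.3.3) with 1 mean per group, eBayes and Benjamini-Hochberg adjustment. The fits were tested on data simulated for GCM LN18 against control. With the block, the share of false calls stayed under the adjusted p at which genes were called. Without the block, that share was far above it, so adjusted p-values without the block are too small there. Such a test was not run for GCM U87-MG. Both media share 1 fit, which without the block counts 6 residual degrees of freedom where the values hold 4. Adjusted p-values without the block therefore tend to be too small in both media. The 10 genes and the gene lists were chosen with earlier results of these data known, and the motifs after the values were seen. Genes outside the 10 were named where they were called with the block, at most 2 higher and 2 lower per list and medium, or, for markers of other cells, where they were called or lay above the median level (P2ry12 and genes called only without the block fall outside this rule), plus the 3 genes most correlated with a member called with or without the block. Alternatives were no block, a trended and robust eBayes prior, dim genes filtered out, the mean of the probe sets, any probe set, only the groups compared, quantile normalization, median centring, array weights and each array left out. Leaving out the 3 arrays of 1 replicate number together was added after seeing the data.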

Additional observations from a re-analysis of the deposited data

How the results depend on the processing

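In GCM LN18 the number of the 10 genes called, 0, became 2 without the replicate block, 1 (Havcr2) with trend and robust estimation, 1 (Havcr2) with array weights, 1 (Cd28) with only the arrays of the 2 groups and 1 (Cd28) with any probe set. It was 0 with a filter on dim genes, the mean of the probe sets, quantile normalization and median centring, and leaving out 1 array gave 0 to 2, the 2 being Cd28 and Havcr2 when replicate 2 of GCM U87-MG was left out. For GCM U87-MG and between the media it was 0 under every alternative run. Over these alternatives the adjusted p in GCM LN18 ran from 0.0162 to 0.490 for Cd28 and from 0.0102 to 0.285 for Havcr2, and neither changed sign against control. Calls over all genes were unstable. In GCM LN18 they numbered 150, with 894 without the block, 89 with only the 2 groups, 265 with array weights and 3 to 179 with 1 array left out. In GCM U87-MG they numbered 8, with 259 without the block, 21 with trend and robust estimation, 3 with the dim filter or quantile normalization, 5 with the mean of the probe sets or any probe set, 4 with array weights, 0 with only the 2 groups and 0 to 10 with 1 array left out. Between the media they numbered 0, with 1 without the block.

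Signs turned only among values that did not pass the test, and the cause was not tested. The log2 fold change of Cd86 was 0.094 in GCM LN18 with any probe set, 0.11 in GCM U87-MG with array weights and 0.092 between the media with any probe set, and that of Cd40 in GCM U87-MG was 0.0040 with median centring and 0.11 with array weights. With 1 array left out, the log2 fold change in GCM LN18 ran from -0.13 to 0.0017 for Cd80 and from -0.38 to 0.10 for Cd86. In GCM U87-MG it ran from -0.21 to 0.22 for Cd86, from -0.044 to 0.010 for Pdcd1lg2 and from -0.18 to 0.34 for Cd40. Between the media it ran from -0.036 to 0.051 for Cd80, from -0.35 to 0.10 for Cd86, from -0.073 to 0.037 for Icosl, from -0.063 to 0.23 for Cd274 and from -0.72 to 0.040 for Cd28. With all arrays of replicate 1 left out, Cd86 was 0.17 in GCM LN18, 0.15 in GCM U87-MG and 0.012 between the media, Cd274 was 0.018 in GCM LN18 and Cd40 was 0.34 in GCM U87-MG. With those of replicate 2 left out, Cd86 was 0.025 in GCM U87-MG, and between the media Cd80 was -0.0059, Cd274 -0.097 and Cd28 0.012. With those of replicate 3 left out, Pdcd1lg2 was 0.0065 in GCM U87-MG, and between the media Cd86 was 0.026 and Icosl 0.049. With 3 arrays per group, intervals as wide as that of Cd40 do not show a gene to be unaltered.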
